A study of Mus musculus with 15 samples.

Results

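Ribosome biogenesis and nucleolar genes were followed through T cell stimulation in N-Ras KO and WT mice, and through loss of N-Ras or H-Ras in thymocytes. The 38 member genes were taken as a fixed list of gene symbols, and every probe set annotated to 1 of them was used, which gave 81 of the 45101 probe sets on the CD4+ T cell arrays (38 of 18194 genes) and 64 of 22690 on the thymocyte arrays (36 of 12394 genes). Dkc1 and Wdr3 had no matched probe set on the thymocyte arrays. The list holds 3 subunits of RNA polymerase I, 6 abundant nucleolar proteins and chaperones, 4 box C/D and 3 box H/ACA snoRNP proteins, 11 factors of the small subunit processome and 11 of large subunit assembly. The CD4+ groups were N-Ras KO stimulated, N-Ras KO control, WT stimulated and WT control, with 3 Affymetrix arrays each. Their cells were splenic CD4+ T cells of 129/SJ mice aged 6 to 20 weeks, kept overnight in growth medium that held 1 microgram per ml of anti-CD3 and anti-CD28 in the stimulated groups and no antibody in the control groups. The KO animals lack the gene in every cell, and the WT animals were their littermates. Thymocytes of 1 N-Ras KO, 1 H-Ras KO and 1 WT mouse of the same strain were used straight after isolation, without treatment. The labels give these mice the same age range, and the study's methods give 6 weeks.

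Ribosome assembly starts in the nucleolus, where RNA polymerase I makes a long precursor that is modified at sites chosen by small nucleolar RNAs, cut, and folded onto ribosomal proteins. Box C/D snoRNPs guide ribose methylation and box H/ACA snoRNPs guide pseudouridine formation, while the small subunit processome and a separate set of assembly factors build the small and the large subunit. A resting T cell is small and holds few ribosomes, and the enlargement of its nucleolus after antigen receptor stimulation is a classical sign of its exit from quiescence.

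Values are log2 expression that the authors centred on the control arrays of each genotype, so a value states how far an array lies from its own controls and not how bright a probe set is. For that reason the tissue could not be checked by the level of its markers, and control N-Ras KO cells could not be set against control WT cells. The targeted gene went against 2 labels. On the 3 Nras probe sets the replicate 3 arrays labelled N-Ras KO stood at 0.80 to 2.09, above every other array of that genotype, while the replicate 1 arrays labelled WT stood at -3.04 and -1.23 (stimulated) and at -2.68 and -1.23 (control) on 2 of them. On the remaining one they stood at -0.14 (stimulated) and -1.61 (control), and the other WT arrays lay between -0.19 and 0.65 on all 3. In thymocytes these probe sets differed by -1.81 to -2.46 for N-Ras KO minus WT. Results that rest on those CD4+ arrays are therefore given with them and without them. The replicate 3 arrays also stood apart for the members, whose values summed to -3.16 and -19.28 in stimulated and control N-Ras KO cells and to 39.00 and 18.80 in stimulated and control WT cells. In the other pairs the sums ran from -9.90 to 10.63. The difference between the 3-prime and 5-prime control probe sets of Gapdh, a sign of RNA quality, was 0.48 and 0.45 on those N-Ras KO arrays and -0.82 and -0.71 on those WT arrays, against -0.33 to 0.00 on the rest, and its part in the results was not tested. Stimulated and control arrays with the same number were compared as pairs.

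Stimulated WT cells had more RNA of most of these genes than control WT cells, and stimulated N-Ras KO cells did so for about as many as not. Over the 38 genes the median paired difference, stimulated minus control, was 0.05 in N-Ras KO cells and 0.43 in WT cells, where the median over all 18194 genes was 0.01 in both. It lay above 0 for 22 members in N-Ras KO cells and for 35 members in WT cells. Over all their probe sets, 41 of 81 lay above 0 in N-Ras KO cells (50.6%, against 51.7% of all probe sets) and 67 in WT cells (82.7%, against 50.5%). By pair, the median over the members was -0.08, -0.06 and 0.37 in N-Ras KO replicates 1, 2 and 3, and 0.41, 0.31 and 0.53 in WT replicates 1, 2 and 3. N-Ras KO replicate 3 lay within the range of the WT pairs, and the remaining N-Ras KO pairs lay below that range. Replicate 3 was the highest pair in WT cells too, at 0.53. The N-Ras KO pair of replicate 3 carries an Nras signal against its label and also stood apart on the Gapdh control probe sets. The part of either in its median was not tested. The WT pair that goes against its label lay between the other WT pairs. In bulk RNA, fewer cells of a type and less RNA per cell cannot be told apart.

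**Figure D1:**
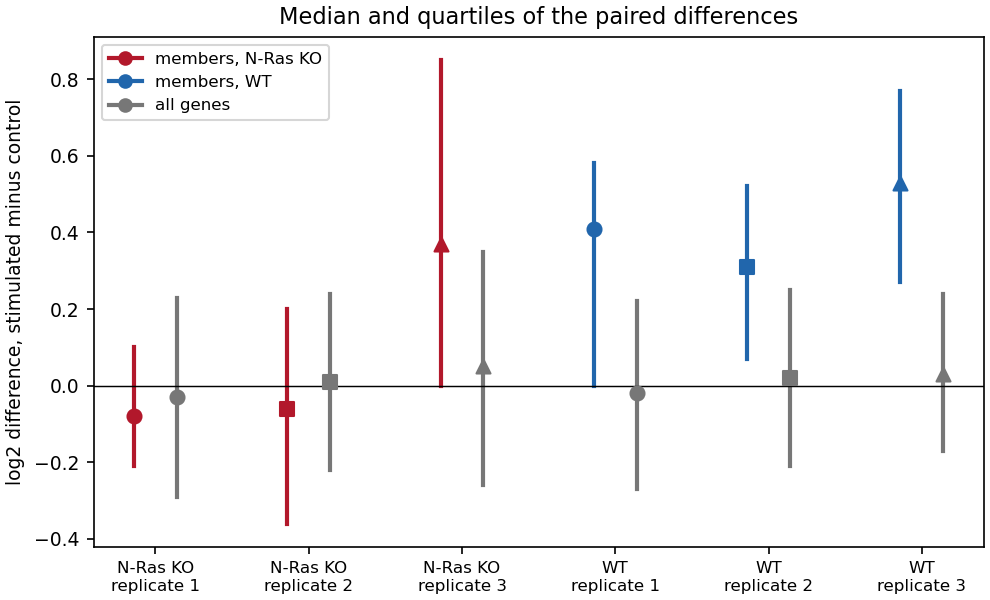
Median (symbol) and quartiles (bar) of the log2 difference, stimulated minus control, in each pair of same-numbered arrays, for the 38 member genes in colour and for all 18194 genes in grey. Members lie at -0.08, -0.06 and 0.37 in the N-Ras KO pairs and at 0.41, 0.31 and 0.53 in the WT pairs, and all genes stay between -0.03 and 0.05.

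No member passed an adjusted p of 0.05 in limma with Benjamini-Hochberg adjustment in either response, nor did any of the 45101 probe sets (percent called 0), and the lowest adjusted p of a member was 0.597 in N-Ras KO cells and 0.9999 in WT cells. At an unadjusted p of 0.05, 7 member probe sets were called in N-Ras KO cells (8.64%, against 7.1% of all probe sets) and 16 in WT cells (19.8%, against 4.3%). At the study's thresholds, which are an unadjusted p of 0.05 and 1.5-fold, 2 member probe sets were higher in stimulated N-Ras KO cells (2.47%, against 2.25% of all probe sets) and 2 were lower (2.47%, against 2.65%). Those higher were of Bysl and Heatr1, and those lower of Nip7 and Noc4l. Without N-Ras KO replicate 1 the counts higher and lower were 4 and 1 (against 2.85% and 3.35%). Without N-Ras KO replicate 3 they were 1 and 2 (against 3.05% and 2.94%). Without WT replicate 2, which enters through the shared spread, they were 2 and 1 (against 1.93% and 2.44%). In WT cells 10 were higher (12.3%, against 1.43%) and 0 were lower (against 1.37%), and the genes were Bysl, Ddx21, Ncl, Nhp2, Nolc1, Nop16, Nop58 and Tsr1. Without WT replicate 1 and N-Ras KO replicate 3 the count higher in WT cells was 19 (against 1.8%), and without WT replicate 3 it was 5 (against 1.71%). Without the pairing it was 2 (against 0.53%), and in N-Ras KO cells 1 higher and 1 lower (against 1.16% and 1.19%).

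The direction of single pairs needs no fit. All 3 paired differences lay above 0 for 13 of the 81 member probe sets in N-Ras KO cells (16%, against 13.8% of all probe sets) and for 42 in WT cells (51.9%, against 14.5%). All 3 lay below 0 for 14 in N-Ras KO cells (17.3%, against 12.9%) and for 1 in WT cells, of Wdr12 (1.23%, against 13.5%). Taken as groups rather than pairs, stimulated and control arrays overlapped for most members. Stimulated arrays lay above all control arrays for 2 probe sets in N-Ras KO cells, of Bysl and Rrp9 (2.47%, against 2.72%), and for 2 in WT cells, of Ncl and Wdr3 (2.47%, against 2.27%). They lay below all control arrays for 4 in N-Ras KO cells (4.94%, against 2.22%) and 0 in WT cells (against 2.12%).

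**Figure D2:**
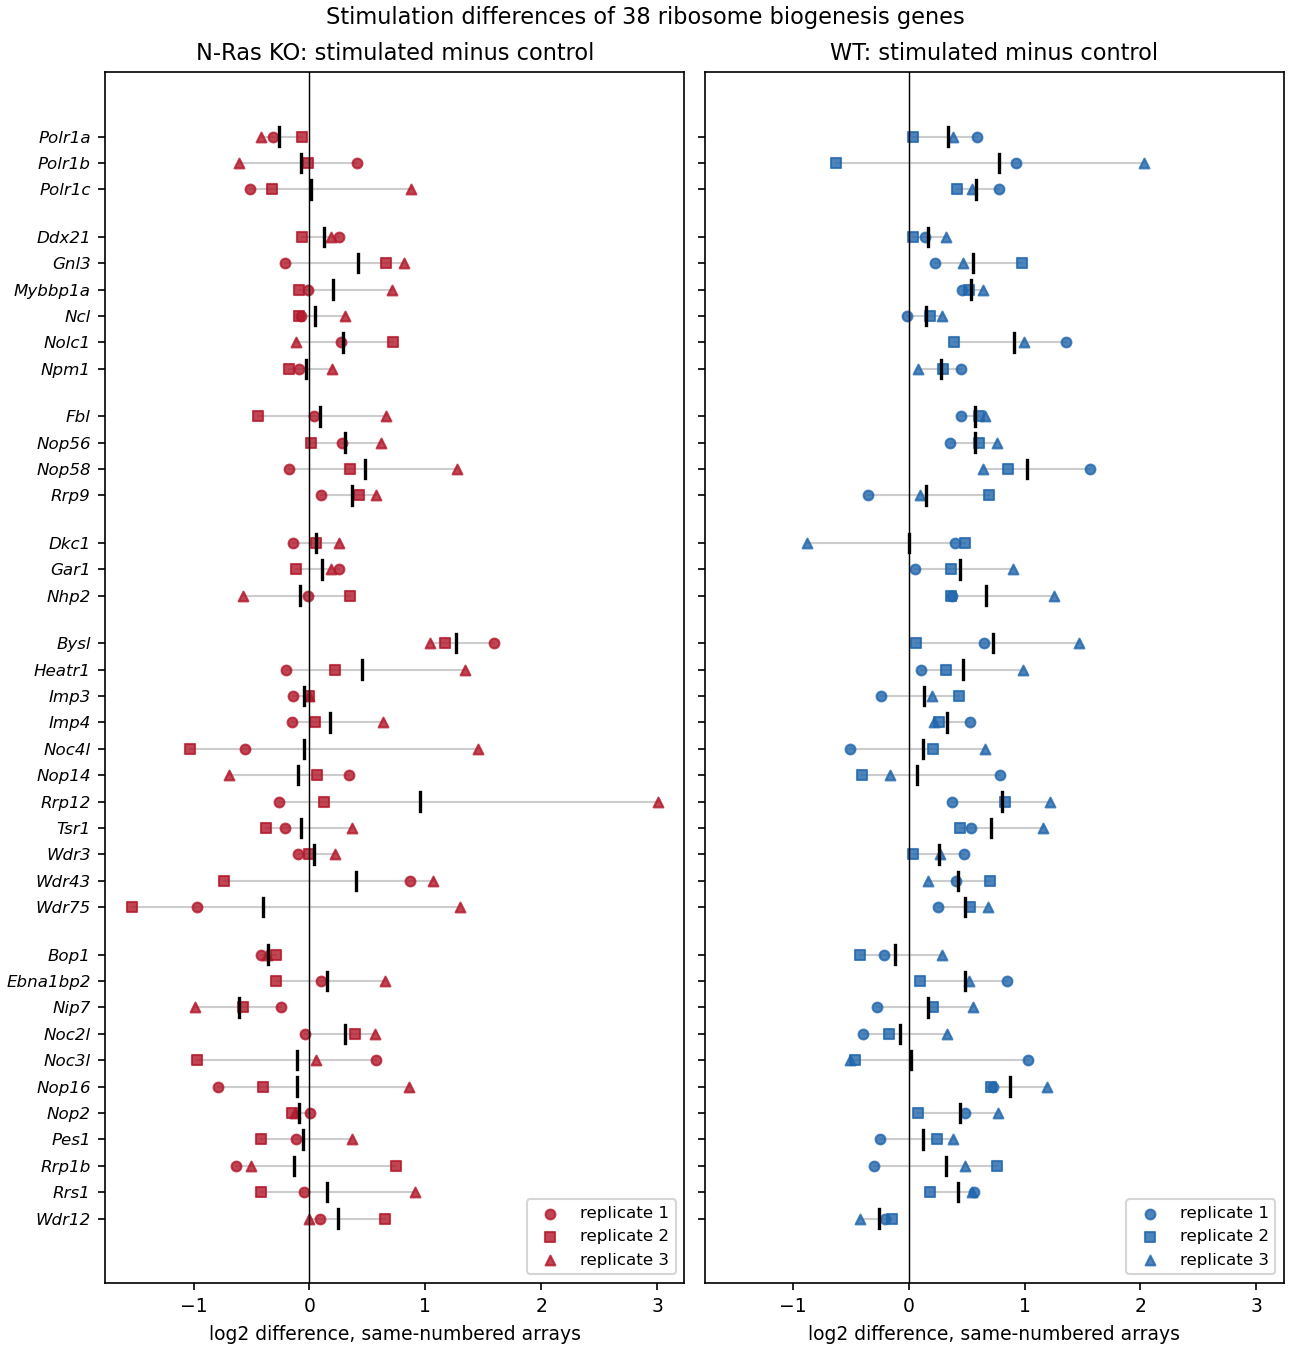
Log2 difference, stimulated minus control, of each member gene on 1 probe set per gene in N-Ras KO cells (left) and WT cells (right), grouped by role. Symbols are the 3 pairs and black ticks their means, which lie above 0 for 22 genes in N-Ras KO cells and for 35 in WT cells.

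The 3 RNA polymerase I subunits had a median response of -0.07 in N-Ras KO cells and 0.58 in WT cells. Polr1c, a subunit that RNA polymerase I shares with RNA polymerase III, stood at -0.60, 0.00 and 0.88 in stimulated N-Ras KO cells, against -0.08, 0.32 and 0.00 in their controls, for replicates 1, 2 and 3. In WT cells it stood at -0.03, 0.81 and 0.55 after stimulation, against -0.81, 0.40 and 0.00 in control culture. Its 3 WT pairs were all above 0 and its N-Ras KO pairs were not, with replicate 3 alone high. Polr1b, the second largest subunit, stood at -0.01, 0.10 and -0.61 in stimulated and -0.42, 0.11 and 0.00 in control N-Ras KO cells, and at 0.60, -0.63 and 2.52 in stimulated and -0.32, 0.00 and 0.49 in control WT cells. One WT pair of Polr1b ran against the other two. The mean response of both genotypes was 0.30 ± 0.20 (SE, 6 pairs) for Polr1c and 0.35 ± 0.34 for Polr1b, with adjusted p of 0.804 and 0.849 (limma). Polr1a, the largest subunit, differed by -0.31, -0.06 and -0.42 in the N-Ras KO pairs and by 0.59, 0.04 and 0.38 in the WT pairs on probe set 1417775_at, while its 4 other probe sets had mean responses between -0.33 and 0.15 in both genotypes.

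Among the abundant nucleolar proteins the median response was 0.16 in N-Ras KO cells and 0.41 in WT cells. Nolc1, a phosphoprotein that chaperones snoRNPs between Cajal bodies and the nucleolus, stood at 0.45, 0.73 and -0.66 in stimulated N-Ras KO cells, against 0.17, 0.00 and -0.55 in control N-Ras KO cells. In WT cells the values were 0.16, 0.39 and 1.23 after stimulation, against -1.19, 0.00 and 0.24 in control culture. Every WT pair of Nolc1 was above 0, by 1.35, 0.39 and 0.99. The mean response of both genotypes was 0.60 ± 0.17 (SE, 6 pairs; limma, unadjusted p = 0.0124, adjusted p = 0.733). Gnl3, the GTPase nucleostemin, stood at -0.11, 0.66 and -0.31 in stimulated and 0.10, 0.00 and -1.13 in control N-Ras KO cells, and at 0.23, 0.79 and 1.67 in stimulated and 0.00, -0.19 and 1.20 in control WT cells. Stimulated Gnl3 was above its paired control in 5 of 6 pairs, with a mean response of 0.49 ± 0.18 (SE; limma, adjusted p = 0.745). The other members of the group were Npm1, which encodes the chaperone nucleophosmin, Mybbp1a, a nucleolar Myb-binding protein, and the RNA helicase Ddx21. Their responses were -0.03, 0.20 and 0.13 in N-Ras KO cells and 0.28, 0.54 and 0.17 in WT cells. On their second probe sets the responses were -0.07, 0.61 and 0.48 in N-Ras KO cells and 0.14, 0.56 and 0.63 in WT cells.

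Ncl encodes nucleolin, a major nucleolar RNA-binding protein. The study picked this gene from these arrays, so its values are no independent evidence. In the paper, qRT-PCR of stimulated WT and N-Ras KO cells with empty vector gave Ncl a similar pattern. Ncl was not among the genes that passed the paper's rescue round. Its probe sets did not behave alike. On 1415772_at it stood at -0.26, 0.04 and 0.12 in stimulated N-Ras KO cells, against -0.24, 0.00 and 0.79 in control N-Ras KO cells, and at 1.47, 1.36 and 1.86 in stimulated WT cells, against 0.00, -0.54 and 0.97 in control WT cells. All stimulated WT arrays lay above all control WT arrays and above all stimulated N-Ras KO arrays on that probe set. The response was -0.21 ± 0.24 in N-Ras KO cells and 1.42 ± 0.24 in WT cells (SE), and their difference was -1.63 ± 0.34 (limma, unadjusted p = 0.00296, adjusted p = 0.961). On 1415771_at, 1415773_at, 1442404_at and 1456528_x_at the responses were 0.05, 0.03, -0.58 and 0.08 in N-Ras KO cells and 0.15, 0.39, -0.16 and 0.09 in WT cells. On 1415771_at, the probe set that stands for the gene in the medians, the arrays read -0.07, -0.05 and 0.07 in stimulated and 0.00, 0.03 and -0.24 in control N-Ras KO cells, and -0.10, 0.23 and 0.28 in stimulated and -0.09, 0.05 and 0.00 in control WT cells. The large Ncl difference thus lay on 1 of 5 probe sets.

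**Figure D3:**
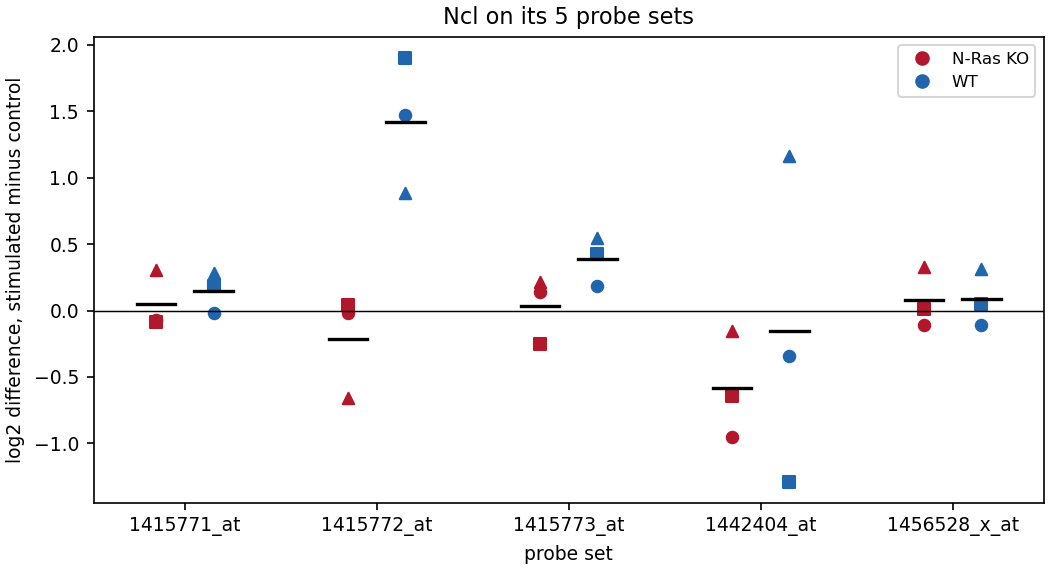
Log2 difference of Ncl, stimulated minus control, on its 5 probe sets in N-Ras KO cells (red) and WT cells (blue). Circles, squares and triangles are replicates 1, 2 and 3 and black bars their means, which differ by -1.63 between the genotypes on 1415772_at.

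The box C/D snoRNP proteins had the highest median in N-Ras KO cells among the 6 role groups, 0.34, and 0.57 in WT cells. Nop58, a scaffold of the particle, stood at 0.26, 0.35 and -0.67 in stimulated N-Ras KO cells, against 0.44, 0.00 and -1.95 in their controls. In WT cells it stood at 0.53, 0.85 and 2.52 after stimulation, against -1.03, 0.00 and 1.87 in control culture. Replicate 3 sat low in N-Ras KO and high in WT in both conditions, so the groups overlapped while the WT pairs all pointed up, by 1.57, 0.85 and 0.64. Nop56, the partner scaffold, showed the same spread of replicate 3, with 0.28, 0.31 and -1.84 in stimulated and 0.00, 0.29 and -2.46 in control N-Ras KO cells, and 0.35, 0.56 and 3.43 in stimulated and 0.00, -0.05 and 2.67 in control WT cells. Each of its 6 pairs was above 0. The mean response of both genotypes was 0.75 ± 0.22 (SE) for Nop58 and 0.44 ± 0.12 for Nop56, with adjusted p of 0.738 and 0.721 (limma). Fbl, the methyltransferase of the particle, had responses of 0.09 in N-Ras KO cells and 0.57 in WT cells, and Rrp9, which binds the particle that starts small subunit processing, had 0.37 and 0.15.

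The box H/ACA snoRNP proteins, which also serve the telomerase RNA, had medians of 0.06 in N-Ras KO cells and 0.44 in WT cells. Nhp2, a core protein of the particle, stood at 0.12, 0.35 and -0.61 in stimulated N-Ras KO cells, against 0.14, 0.00 and -0.04 in control N-Ras KO cells, and at 0.05, 0.37 and 1.61 in stimulated WT cells, against -0.32, 0.00 and 0.36 in control WT cells. Every N-Ras KO pair lay below every WT pair. A second probe set, 1416606_s_at, gave responses of -0.10 ± 0.17 in N-Ras KO cells and 0.92 ± 0.17 in WT cells (SE), a difference of -1.02 ± 0.24 (limma, unadjusted p = 0.00545, adjusted p = 0.961). Its suffix marks probes that can match more than 1 transcript. Gar1, another core protein, stood at 0.26, -0.14 and 1.02 in stimulated and 0.00, -0.02 and 0.83 in control N-Ras KO cells, and at 0.74, 0.36 and 0.40 in stimulated and 0.68, 0.00 and -0.50 in control WT cells. Its pairs were above 0 in 5 of 6 cases, with a mean response of 0.27 ± 0.14 (SE; limma, adjusted p = 0.778), close to the 0.29 ± 0.18 of Nhp2 on its first probe set (adjusted p = 0.798). Dkc1, the pseudouridine synthase, had responses of 0.06 in N-Ras KO cells and 0.01 in WT cells, where 1 pair lay at -0.87 and the other two at 0.40 and 0.49.

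On 1 probe set per gene, the member with the largest mean response of both genotypes was in the small subunit processome. Bysl, which encodes bystin, a factor of late small subunit maturation, stood at 1.48, 1.38 and 1.04 in stimulated N-Ras KO cells, against -0.11, 0.21 and 0.00 in their controls. In WT cells it stood at 0.62, 1.06 and 1.47 after stimulation, against -0.03, 0.99 and 0.00 in control culture. Stimulated and control arrays did not overlap in N-Ras KO cells, and in WT cells 1 control array lay among the stimulated ones. The response was 1.27 ± 0.28 in N-Ras KO cells and 0.73 ± 0.28 in WT cells (SE; limma, unadjusted p = 0.00368 and 0.0392, adjusted p = 0.597 and 0.9999). The second Bysl probe set, 1450742_at, did not share this, with -0.22 ± 0.33 and 0.46 ± 0.33. Bysl thus had the highest N-Ras KO response of the members, on 1 of its 2 probe sets.

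Rrp12, a factor of subunit export, stood at 0.21, 0.12 and 1.30 in stimulated N-Ras KO cells, against 0.48, 0.00 and -1.71 in control N-Ras KO cells, and at -0.21, 0.83 and 1.80 in stimulated WT cells, against -0.58, 0.00 and 0.58 in control WT cells. Its N-Ras KO response rested on replicate 3, whose pair lay at 3.01 while the other two lay at -0.26 and 0.12. The mean response of both genotypes was 0.88 ± 0.44 (SE, 6 pairs; limma, adjusted p = 0.778) and lay between 0.37 and 1.19 when each pair was left out in turn. Tsr1, which acts late in small subunit assembly, stood at -0.21, -0.27 and -0.93 in stimulated and 0.00, 0.11 and -1.30 in control N-Ras KO cells. In WT cells it stood at 0.35, 0.44 and 2.34 in stimulated and -0.19, 0.00 and 1.18 in control arrays. All stimulated WT arrays of Tsr1 lay above all stimulated N-Ras KO arrays. Wdr75, one of the factors that bind the precursor first, stood at 0.07, -1.53 and 1.01 in stimulated and 1.04, 0.00 and -0.29 in control N-Ras KO cells, and at 0.26, 0.20 and 1.34 in stimulated and 0.00, -0.33 and 0.65 in control WT cells. Its WT pairs were close together and its N-Ras KO pairs spread from -1.53 to 1.30. On its second probe set, 1451649_a_at, the response was 0.28 in N-Ras KO cells and -0.29 in WT cells. On 1 probe set per gene, all 11 genes of this group had a WT response above 0, between 0.07 for Nop14 and 0.81 for Rrp12. An N-Ras KO response above 0 was seen for 6 of 11. Heatr1 and Wdr43, which bind the precursor early, had responses of 0.45 and 0.40 in N-Ras KO cells and 0.47 and 0.43 in WT cells. That gap between the genotypes lay well inside the spread of their pairs. On 1437965_at Heatr1 had N-Ras KO pairs of 0.71, 0.64 and 0.54, with responses of 0.63 in N-Ras KO and 0.45 in WT cells. On 1452419_at its N-Ras KO pairs were also all above 0, with responses of 0.43 and 0.36. Wdr3, Imp3 and Noc4l, further processome proteins, had 0.04, -0.05 and -0.04 in N-Ras KO cells and 0.26, 0.13 and 0.12 in WT cells. On 1423827_s_at, 1438095_x_at and 1443794_x_at Noc4l had -0.10, -0.70 and -0.84 in N-Ras KO cells and 0.05, 0.12 and 0.19 in WT cells. Imp4, a partner of Imp3 in the processome, disagreed between probe sets, with -0.91, -0.24 and 0.18 in N-Ras KO cells on 1426214_at, 1455723_at and 1426213_at, and -0.26, 0.77 and 0.33 in WT cells.

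Large subunit assembly had the lowest WT median of the role groups, 0.16, and -0.09 in N-Ras KO cells. Nop16, which joins early large subunit precursors in yeast, stood at -0.18, -0.40 and -0.19 in stimulated N-Ras KO cells, against 0.61, 0.00 and -1.06 in control N-Ras KO cells. In WT cells it stood at -0.67, 0.71 and 1.19 after stimulation, against -1.40, 0.00 and 0.00 in control culture. Its WT pairs lay at 0.73, 0.71 and 1.19, and its N-Ras KO pairs lay at -0.79, -0.40 and 0.86. On its second probe set, 1451414_at, the response was 0.50 in N-Ras KO cells and 0.57 in WT cells. Ebna1bp2, an assembly factor of the large subunit, stood at 0.10, 0.59 and -0.99 in stimulated and 0.00, 0.88 and -1.64 in control N-Ras KO cells, and at -0.11, 0.09 and 1.37 in stimulated and -0.96, 0.00 and 0.86 in control WT cells. The mean response of both genotypes was 0.38 ± 0.23 (SE) for Nop16 and 0.32 ± 0.16 for Ebna1bp2, with adjusted p of 0.793 and 0.782 (limma). Ebna1bp2 gave -0.01 and -1.14 in N-Ras KO cells, and -0.05 and -0.28 in WT cells, on its further probe sets 1437512_x_at and 1439898_at. Nip7, another assembly factor, gave -0.60 and 0.49 in N-Ras KO cells and 0.16 and 0.16 in WT cells on its pair of probe sets. The assembly factors Nop2, Rrs1, Rrp1b, Noc3l and Noc2l had responses of -0.09, 0.15, -0.13, -0.11 and 0.31 in N-Ras KO cells and 0.45, 0.43, 0.32, 0.02 and -0.08 in WT cells. Noc2l alone of these was lower in WT than in N-Ras KO cells. Bop1, Pes1 and Wdr12, which form a complex needed for large subunit maturation, had responses of -0.36, -0.05 and 0.25 in N-Ras KO cells and -0.12, 0.13 and -0.26 in WT cells. On these probe sets the WT responses of the 3 partners thus lay on both sides of 0. On further probe sets the N-Ras KO and WT responses were -0.58 and -0.14 for Bop1 and -0.55 and 0.05 for Pes1. For Wdr12 they were -0.50 and -0.05 on 1448646_at and 0.08 and 0.04 on 1459762_x_at.

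**Figure D4:**
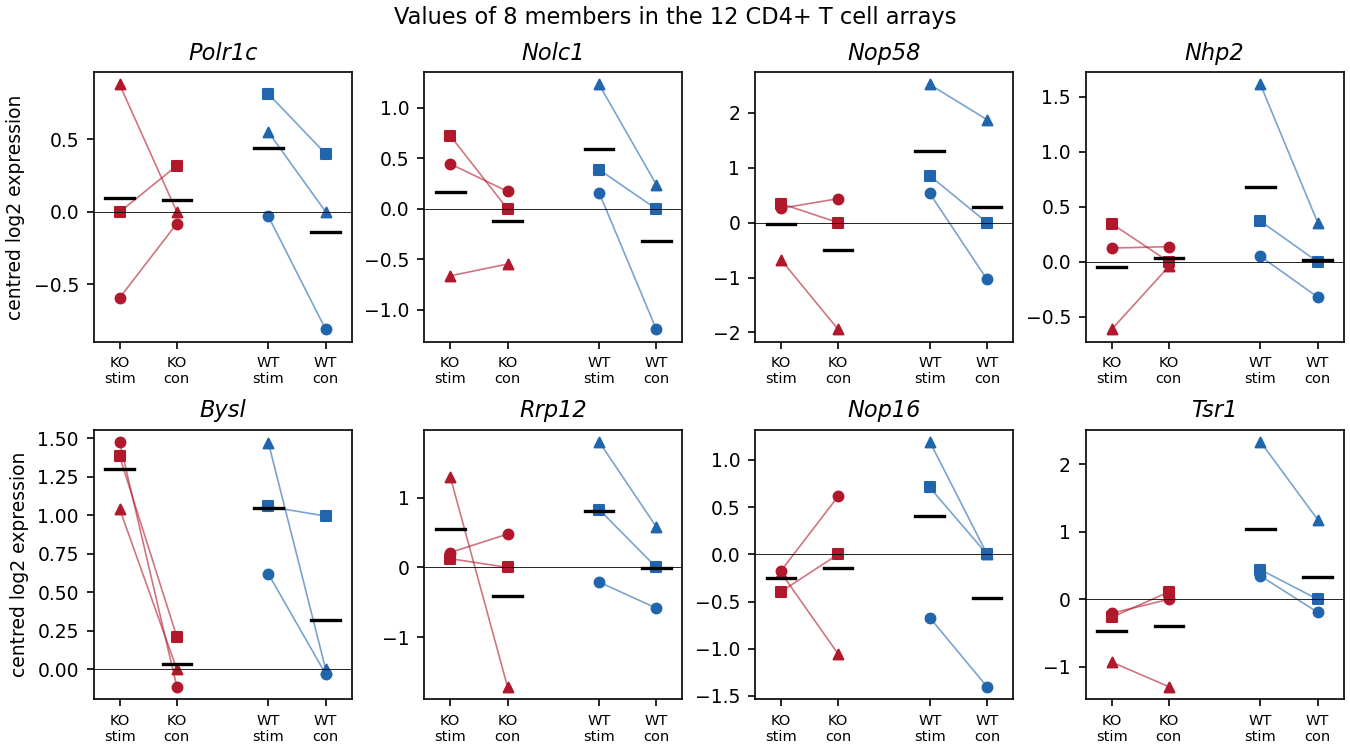
Centred log2 values of 8 members on the 12 CD4+ T cell arrays, N-Ras KO in red and WT in blue, with lines that join same-numbered stimulated and control arrays and black bars for group means. Circles, squares and triangles are replicates 1, 2 and 3, and the WT lines slope down from stimulated to control in all 8 genes. On 1 probe set per gene, all 3 WT pairs lay above 0 for 24 of the 38 members, against 2808 of all 18194 genes, and these 8 are among them. All 3 N-Ras KO pairs lay above 0 for 3 of the 38, against 2612 of 18194. Polr1b, which is not shown, had a WT pair at -0.63.

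The difference of the responses, N-Ras KO minus WT, asks whether loss of N-Ras alters the stimulus effect. Its median was -0.25 over the members and 0.00 over all genes, and the WT response was the larger for 32 of 38 members (49.6% of all genes). Of the 81 member probe sets 18 had a difference above 0 (22.2%, against 50.9%). No member passed the adjusted threshold in limma (0 of 45101 probe sets did, percent called 0), and 8 member probe sets had an unadjusted p under 0.05 (9.88%, against 4.58% of all probe sets). At the study's thresholds 0 were higher in N-Ras KO (against 1.84%) and 8 were lower (9.88%, against 2.28%), of Ncl, Nhp2, Nip7, Noc3l, Noc4l, Nolc1, Polr1a and Tsr1. Those of Nhp2, Noc4l and Tsr1 lay on probe sets that can match more than 1 transcript. Without WT replicate 1 and N-Ras KO replicate 3 the count lower was 16 (against 2.73%) and the median -0.50. Without N-Ras KO replicate 3 alone the count was 13 (against 3%), without N-Ras KO replicate 1 it was 5 (against 2.59%), without WT replicate 3 it was 3 (against 2.21%), and without the pairing it was 1 (against 0.665%). The share of 3 in 81 is 3.7%, close to the 2.21% over all probe sets. Every N-Ras KO pair lay below every WT pair for 12 member probe sets (14.8%, against 5.41%) and above for 1 (1.23%, against 4.98%).

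On 1 probe set per gene, the 4 members with the largest difference of responses were Nop16 at -0.98 ± 0.45, Wdr75 at -0.89 ± 0.73, Polr1b at -0.85 ± 0.69 and Tsr1 at -0.78 ± 0.31 (SE). On second probe sets the N-Ras KO and WT responses were 0.50 and 0.57 for Nop16, 0.28 and -0.29 for Wdr75, and -0.26 and 0.74 for Tsr1. For Wdr75 the order of the genotypes was thus reversed, and Polr1b had no second probe set. The adjusted p of the 4 differences above was 0.961 for each in limma. Of these only Tsr1 had an unadjusted p under 0.05 (0.042). The role medians of this difference were -0.60 for RNA polymerase I, -0.22 for the abundant nucleolar proteins, -0.38 for box C/D and -0.33 for box H/ACA snoRNP proteins, -0.16 for the small subunit processome and -0.28 for large subunit assembly. All 6 role medians were below 0. Bysl ran the other way, at 0.54 ± 0.39. Neutrophil granule markers moved with the same contrast, and all 7 measured ones had a difference above 0, with a median of 1.20. Their summed value was 13.63, 7.26 and -1.93 in stimulated and -0.18, 0.22 and 0.29 in control N-Ras KO cells, and 2.39, -11.44 and -3.42 in stimulated and 2.63, -13.30 and 2.85 in control WT cells. Their part in the members' difference was not tested. The B cell markers had a median difference of 0.52, with 4 of 5 above 0 and 1 higher at the thresholds, Blnk at 1.57 (limma, unadjusted p = 0.0399). Their part was not tested either. The 8 T cell activation markers had median responses of 1.01 in N-Ras KO cells and 1.43 in WT cells, while the median of their differences was 0.11, with 5 of 8 above 0. At the thresholds 2 of them were higher in N-Ras KO, Egr2 at 2.85 and Irf4 at 0.80 (limma, unadjusted p = 0.038 and 0.0339), and 0 were lower. Their summed value was higher in the stimulated array than in its control in all 6 pairs.

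The centred values of stimulated N-Ras KO cells minus those of stimulated WT cells gave a median of -0.34 over the members and 0.02 over all genes, and 17 of the 81 probe sets lay above 0 (21%, against 53.5%). Since each genotype was centred on the median of its own controls, it is no comparison of levels but a second form of the difference of responses, with which it shares the stimulated arrays. No member was called after adjustment (percent called 0), and the lowest adjusted p was 0.488, for Ncl on 1415772_at (limma, -1.60 ± 0.39, SE, unadjusted p = 0.0019). At an unadjusted p of 0.05 there were 6 (7.41%, against 7.6%). At the study's thresholds 0 were higher in N-Ras KO (against 3.57%) and 6 were lower (7.41%, against 3.33%), of Ncl, Nhp2, Noc4l, Nolc1 and Tsr1. That count was 16 without WT replicate 1 and N-Ras KO replicate 3 (against 3.58%), 11 without WT replicate 1 (against 3.08%), 3 without N-Ras KO replicate 1 (against 2.86%) and 3 without WT replicate 3 (against 2.82%). The neutrophil markers had a median of 1.72 in this comparison (6 of 7 above 0, 2 higher at the thresholds) and the B cell markers 0.57 (5 of 5 above 0, 1 higher). The T cell markers had a median of -0.39 (6 of 7 below 0, 0 past the thresholds) and the proliferation markers -0.19 (7 of 7 below 0, 0 past the thresholds). The part of these markers in the members' difference was not tested. Over both genotypes together, the mean response lay above 0 for 62 member probe sets (76.5%, against 51.6%) and had 14 member probe sets at an unadjusted p of 0.05 (17.3%, against 6.59%), of which 5 were higher at the study's thresholds (6.17%, against 1.25%), 0 were lower (against 1.48%) and 0 passed adjustment (percent called 0). Without N-Ras KO replicate 3 or without WT replicate 3 the 5 became 3 (against 1.63% and 1.31%).

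Genes of the same pathway outside the list had WT medians closer to 0 than the members' median of 0.43. Of 40 measured further small subunit factors, 1 was higher in stimulated N-Ras KO cells and 2 in stimulated WT cells at the study's thresholds, with none lower and medians of 0.03 and 0.16. Over all 18194 genes 2.07% were higher and 2.31% lower in N-Ras KO cells, and 1.59% higher and 1.19% lower in WT cells. The figures for 44 further large subunit factors were 0 higher and 3 lower in N-Ras KO cells, 1 higher and 0 lower in WT cells, and medians of 0.03 and 0.12. The 9 further snoRNP genes had medians of 0.07 in N-Ras KO and 0.35 in WT cells, with 0 called in N-Ras KO cells and 1 higher and 1 lower in WT cells. The 16 further RNA polymerase I genes stood at -0.12 and 0.04 and the 13 exosome genes, which trim the precursor, at -0.06 and 0.02. No gene of these lists passed adjustment in limma.

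The 6 genes of those lists and of the Myc network with the largest mean response are given by pair. Dhx37, a helicase of the small subunit processome, differed by 2.80, 1.62 and 0.19 in the N-Ras KO pairs and by 1.35, 1.38 and 2.42 in the WT pairs, a mean response of 1.63 (limma, adjusted p = 0.656). All 6 of its pairs were above 0. Myc, a transcription factor known to drive ribosome assembly genes, differed by 0.02, 0.01 and 1.21 in the N-Ras KO pairs and by 0.91, 1.66 and 1.46 in the WT pairs (mean 0.88, limma, adjusted p = 0.67). Ppan, a large subunit factor, differed by -0.33, -0.14 and 2.16 in the N-Ras KO pairs and by 1.16, 1.47 and 0.83 in the WT pairs, and Ruvbl2, an ATPase of box C/D assembly, by -0.07, 0.01 and 2.19 and by 0.78, 0.51 and 0.68. In these 3 genes N-Ras KO replicate 3 was high and the other N-Ras KO pairs lay near 0 or below, as for the median of the members. Ftsj3, a methyltransferase of large subunit assembly, and Znhit3, a box C/D assembly factor, lay below 0 on average, at -0.65 and -0.64 (adjusted p = 0.769 and 0.738).

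Some members share features that the list did not use, and most members lack each of them. In the RefSeq annotation of GRCm38.p6, 7 of the 38 genes hold an annotated small nucleolar RNA gene within their span, on either strand (18.4%), against 372 of 21900 protein-coding genes (1.7%). They were Nop56 with 5, Nop58 with 4, Gnl3 and Wdr43 with 3 each, Ncl with 2, and Dkc1 and Tsr1 with 1 each. The median response of these hosts was 0.31 in N-Ras KO cells and 0.56 in WT cells, and that of the other 31 members 0.02 and 0.34. Promoter windows of 300 bases from RefSeq, from 250 bases before the start to 50 after, were matched for 33 members (37 windows). The letters CCGGAAGT, read on both strands and known as an ETS motif, stood in 10 of them (27%), against 6.03% of 16695 windows of protein-coding genes on the array. The E-box CACGTG, the same on both strands and bound by Myc with its partner Max, stood in 6 (16.2%), against 8.89%. The other motifs searched on both strands, the core motif of NRF1 and a palindrome with CGCG at its centre, stood in 0 member windows, against 1.63% and 0.803%. Windows of 1 gene with several starts can overlap, and a match is a description of the letters alone.

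On 1 probe set per gene, every N-Ras KO pair lay below every WT pair for 4 of the 38 members, against 5.61% of all genes. The opposite order held for 1 member, Wdr12. The 4 were picked by their responses, so their motifs are only described, and a link between motif and response was not tested. Of these 4 members 3 had a window with 1 or both of these motifs, as had 14 of the 33 matched members. Their windows are shown for that reason, in lower case with the motifs in capitals, 5′ to 3′. In Nhp2 the ETS letters begin 23 bases before its start, in Nop2, a methyltransferase of the large subunit RNA, the E-box begins 60 bases before, and in Tsr1 the ETS letters begin 1 base before and the E-box 24 bases after, with no overlap between motifs. All lie on the plus strand of GRCm38.p6, Nhp2 at chr11:51619523-51619822, Nop2 at chr6:125131633-125131932 and Tsr1 at chr11:74897830-74898129.
Nhp2: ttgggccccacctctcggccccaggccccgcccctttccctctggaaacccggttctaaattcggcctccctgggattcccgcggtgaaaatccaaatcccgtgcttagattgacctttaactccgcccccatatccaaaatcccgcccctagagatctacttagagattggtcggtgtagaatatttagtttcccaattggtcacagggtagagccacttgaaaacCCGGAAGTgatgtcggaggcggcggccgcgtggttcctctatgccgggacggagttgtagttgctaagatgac
Nop2: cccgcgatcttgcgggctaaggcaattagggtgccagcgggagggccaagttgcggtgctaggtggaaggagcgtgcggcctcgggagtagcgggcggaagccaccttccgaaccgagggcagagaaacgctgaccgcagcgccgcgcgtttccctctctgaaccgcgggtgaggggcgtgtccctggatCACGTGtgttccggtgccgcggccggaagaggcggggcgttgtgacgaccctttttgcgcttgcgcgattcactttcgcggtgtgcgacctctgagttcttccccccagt
Tsr1: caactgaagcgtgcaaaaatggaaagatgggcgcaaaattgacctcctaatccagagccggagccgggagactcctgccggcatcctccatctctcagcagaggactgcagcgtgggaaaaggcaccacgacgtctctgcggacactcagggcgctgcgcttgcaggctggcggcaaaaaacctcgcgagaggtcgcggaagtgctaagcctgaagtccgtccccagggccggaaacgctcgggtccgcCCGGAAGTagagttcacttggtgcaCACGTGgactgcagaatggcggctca
The remaining member of that group, Polr1a, had neither motif in its window. The median response of the 9 genes with the ETS letters was 0.04 in N-Ras KO cells and 0.47 in WT cells, and of the other 24 matched genes 0.05 and 0.33. For the 6 genes with the E-box it was 0.06 and 0.44, and for the other 27 it was 0.05 and 0.34. With and without either motif, the WT median was the higher.

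In thymocytes most of these genes read nearly alike in the 3 mice, as did most probe sets on the arrays. With 1 array per genotype there was no replicate, so differences are given without a test. The median over 36 members was -0.01 for N-Ras KO minus WT and 0.00 for H-Ras KO minus WT, and 0.00 over all genes in both. In N-Ras KO minus WT, 45 of 64 member probe sets differed by no more than 0.1 log2 (70.3%, against 63% of all probe sets), and in H-Ras KO minus WT 43 did (67.2%, against 65.9%). At 1.5-fold, 1 member probe set was higher in N-Ras KO (1.56%, against 1.55%) and 1 was lower (1.56%, against 1.09%). Both directions together made 3.12%, against 2.64%, and 0 differed in H-Ras KO (against 2.97%). Wdr75 on 1442296_at stood at 0.63 in N-Ras KO, 0.00 in H-Ras KO and -0.42 in WT thymocytes, a difference of 1.05 for N-Ras KO minus WT. On its second probe set, 1451649_a_at, it differed by 0.05 in both comparisons. Noc2l, a factor of large subunit assembly, stood at -0.27 in N-Ras KO, 0.00 in H-Ras KO and 0.56 in WT thymocytes, a difference of -0.83. On Wdr75 1442296_at and on Noc2l, H-Ras KO lay between the other arrays, with differences of 0.42 and -0.56 for H-Ras KO minus WT. Ncl on 1415772_at, the member probe set with the largest WT response in CD4+ cells, differed by -0.01 in both comparisons. All values of 10 member probe sets were 0 on all 3 arrays (15.6%, against 23.7%).

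**Figure D5:**
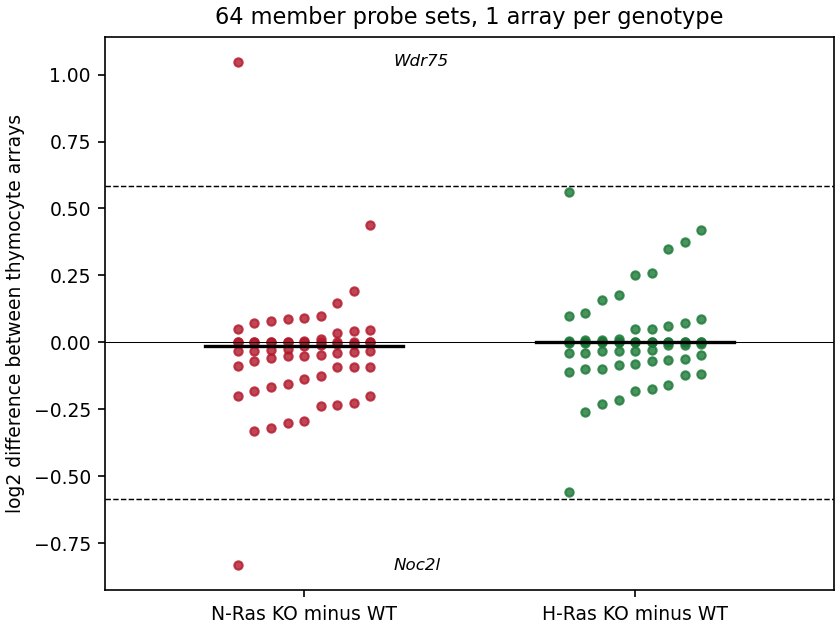
Log2 difference of the 64 member probe sets between thymocyte arrays, N-Ras KO minus WT (left) and H-Ras KO minus WT (right), with 1 array per genotype, bars at the medians over probe sets and dashed lines at 1.5-fold. Wdr75 at 1.05 on 1442296_at and Noc2l at -0.83 lie past the lines in N-Ras KO, and no probe set does in H-Ras KO. There Noc2l at -0.56 and Nolc1 at 0.56 on 1428870_at lie just inside the lines, and Wdr75 on 1442296_at lies at 0.42. Wdr75 lies at 0.05 on 1451649_a_at.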

How the data were processed

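RNA of splenic CD4+ T cells (12 arrays) and thymocytes (3 arrays) was hybridised to Affymetrix arrays. The authors deposited log2 values made with RMA in GeneSpring, quantile normalized and then centred, so that on each of 45101 probe sets the median control value within a genotype is 0, as is the median of the 3 thymocyte values on each of 22690. Quantile normalization makes values relative to the other genes of an array. A filter on dim probe sets could not be run on centred values. No authors' comparison columns were used.

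Gene symbols came from the annotation of the array platform in GEO. On the CD4+ arrays 34958 probe sets name 1 gene, 932 name more and 9211 are unnamed. Medians use 1 probe set per gene, plain _at before other types, then the lowest ID. The CD4+ arrays were fitted with limma 3.58.1 in R 4.3.3 (lmFit, eBayes, two-sided, Benjamini-Hochberg over all probe sets), with same-numbered stimulated and control arrays of a genotype as a block. The paper says both that sorted cells were divided between the conditions and that different mice were used. The pairing was checked: deviations from group means correlated at 0.361, 0.394 and 0.626 in the N-Ras KO pairs and 0.458, 0.447 and 0.738 in the WT pairs. Stimulated and control arrays with different numbers correlated at -0.446 to 0.227 in N-Ras KO and at -0.496 to 0.139 in WT. Whether a pair came from 1 mouse cannot be read from these values. Stimulated N-Ras KO was set against stimulated WT without a block. The p-values measure only the spread between these arrays. The study's thresholds (unadjusted p of 0.05, 1.5-fold) are given beside. Thymocytes were compared by fold. The fit was tested on simulated data.

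Genes named with all arrays are the 2 of each role with the largest mean response, the 4 with the largest difference of responses, Ncl, and members whose probe sets differ in sign by over 1 log2 unit. The 6 further pathway genes with the largest mean response are named too. Members and lists were chosen with earlier results of these data known. Motifs and single probe sets beyond this rule were picked after their values were seen. Alternatives covered pairing, weights, normalization, probe set choice, fold and each replicate.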

Additional observations from a re-analysis of the deposited data

Results flagged for a closer look

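For 3 member probe sets all 3 N-Ras KO pairs lay below 0 and all 3 WT pairs above 0 (3.7% of the 81, against 1.54% of all probe sets). The opposite split occurred for 0 members (against 1.43%). Polr1a on 1417775_at differed between the responses, N-Ras KO minus WT, by -0.60 ± 0.23 (SE; limma, unadjusted p = 0.0379, adjusted p = 0.961). The second was Nolc1 on 1450087_a_at, with pairs of -0.38, -0.25 and -0.12 in N-Ras KO cells and 0.99, 0.11 and 0.72 in WT cells, a difference of -0.86 ± 0.27 (limma, unadjusted p = 0.0197, adjusted p = 0.961). Noc3l, a factor of large subunit assembly, had pairs of -0.07, -0.38 and -0.16 in N-Ras KO cells and 0.16, 0.47 and 0.75 in WT cells on 1437500_at, a difference of -0.66 ± 0.23 (limma, unadjusted p = 0.0263, adjusted p = 0.961). These probe sets were picked by the split itself, so their unadjusted p add no independent evidence. None passed adjustment, and the other probe sets of these genes did not show the split.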

How the results depend on the processing

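Counts at the study's thresholds depended on the setting, and 0 members passed adjustment in any. Of the 81 member probe sets, 1 is 1.23% and 2 are 2.47%. With no replicate block the counts were 1 higher and 1 lower in the N-Ras KO response (against 1.16% and 1.19% of all probe sets). They were 2 higher in the WT response (against 0.53%), 1 higher in the mean response (against 0.667%) and 1 lower in the difference of responses (against 0.665%). With the block by number across genotypes they were 1 and 1 (against 1.29% and 1.19%), 2 (against 0.57%), 2 (against 0.776%) and 2 (against 0.707%). The methods' t-test gave 1 higher and 0 lower in the N-Ras KO response (against 0.388% and 0.51%). It gave 1 higher in the WT response (against 0.423%) and 2 lower in stimulated N-Ras KO minus stimulated WT (against 2.01%). Array weights left 0 lower in the N-Ras KO response (against 2.17%). Quantile normalization of the values gave 1 higher and 1 lower there (against 1.42% and 1.44%). It gave 3 higher in the mean response (against 0.982%) and 5 lower in the difference (against 1.39%). With 1 probe set per gene, of 38, they were 1 and 1 in N-Ras KO (against 2.17% and 2.39% of all genes). They were 6 higher in WT (against 1.67%) and 3 higher in the mean (against 1.33%). They were 3 lower in the difference (against 2.41%) and 1 lower between stimulated cells (against 3.18%). Without _s_at and _x_at probe sets they were 1 lower in N-Ras KO (against 2.69%), 5 lower in the difference (against 2.18%) and 2 lower between stimulated cells (against 3.26%). At 2-fold they were 1 higher and 0 lower in N-Ras KO, 2 higher in WT, 0 higher in the mean and 3 lower in the difference. These 2-fold counts are given without the share over all probe sets, so they are not read as a result about the members. Without WT replicate 1 and N-Ras KO replicate 3 they were 1 higher in N-Ras KO (against 2.99%) and 19 higher in WT (against 1.8%). They were 16 lower in the difference (against 2.73%) and 16 lower between stimulated cells (against 3.58%). Leaving out each pair gave 1 to 4 higher (against 1.87% to 3.18%) and 1 to 3 lower (against 2.29% to 4.1%) in N-Ras KO. In WT it gave 5 to 12 higher (against 1.41% to 1.71%). In the mean it gave 3 to 7 higher (against 1.07% to 1.71%) and 0 to 1 lower (against 1.35% to 2.33%). In the difference it gave 0 to 1 higher (against 1.4% to 2.84%) and 3 to 13 lower (against 1.92% to 3.14%). Between stimulated cells it gave 3 to 11 lower (against 2.65% to 3.83%). The cause was not tested. Between stimulated cells, 7 of all probe sets passed adjustment without N-Ras KO replicate 3, and 1 did without N-Ras KO replicate 2 or with array weights, none of them members.

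The WT median stayed between 0.33 and 0.43 when each pair was left out, the difference between -0.41 and -0.20, and the N-Ras KO median between -0.05 and 0.17, below 0 without replicate 3. In thymocytes 1 member probe set, of Wdr75, was past 2-fold in N-Ras KO, a count also given without the share over all probe sets. The N-Ras KO median was -0.03 without probe sets at 0 on all 3 arrays and -0.02 without _s_at and _x_at probe sets. The number of arrays, 3 per group, limits the precision.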
